A study of Mus musculus with 20 samples.

Results

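The genes described here are the 7 small heat shock protein genes that are well expressed in skeletal muscle, Hspb1, Hspb2, Hspb3, Hspb6, Hspb7, Hspb8 and Cryab, and the cochaperone gene Bag3, together 8 of the 55401 genes in the count matrix. They were taken as a family by name, and the family was chosen because its member Hspb7 had already shown a pattern with the treatment in these same 20 mice. The family was thus selected on the values of Hspb7 in treated against untreated mice. In that comparison the 8 genes are described by their values, with no p-value for a member. Counts of calls in the main fit stand beside the share over all genes. Some counts from other fits have no share beside them, and nothing is read from those. The rule of choice did not use sex, sequencing batch, the interaction of treatment with sex or the covariation from mouse to mouse, and these were tested. The members and the gene lists were, however, chosen with earlier results of these data known.

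Small heat shock proteins are chaperones that share the alpha-crystallin domain, assemble into oligomers and hold unfolding proteins without using ATP. In striated muscle they gather at the Z-disc and along the filaments, where contraction strains proteins. Bag3 joins Hspb8 to Hsp70-type chaperones and passes damaged Z-disc proteins such as filamin C to autophagy, a route called chaperone-assisted selective autophagy.

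RNA was sequenced from the gastrocnemius, the large calf muscle, of C57BL/6 mice aged 24 months. HK, a standardized extract of the plant Salvia haenkei (Haenkenium), had been given to 10 mice at 0.5 mg/kg/day in their drinking water from 20 months of age, that is for 4 months, and 10 mice received none. There were 5 mice of each sex per group, of which 2 of each sex and group were in batch 1 (8 mice) and 3 of each in batch 2 (12 mice), the batches being separate sequencing experiments. The muscle was sequenced whole, so fewer cells of a type and less RNA per cell cannot be told apart, and a difference between groups of mice is a difference in the tissue.

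Libraries held from 13900180 to 30469644 counts, and the 8 genes took from 0.202% to 0.632% of them. Each of the 8 genes passed the filter on low counts, and the lowest count of any of them in any mouse was 227, for Hspb3. Marker genes of fast fibres were by far the most abundant of the marker lists in every mouse, as their summed level ran from 124970 to 189590 CPM (counts scaled to library size after TMM normalization), against 774 to 6357 CPM for slow fibres. One mouse stood apart: the counts of untreated female 3 differed from those of the other batch 2 females of its group by a chi-square per degree of freedom of 38.7 and 49.6, whereas all other pairs of the same group, sex and batch lay between 8.06 and 29.1. Results of the 8 genes that rest on this mouse are given with and without it. The fold changes of genes in the other lists were fitted with it only.

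Per exon length, Cryab was the most abundant of the family, followed by Hspb6, Hspb8 and Hspb7, with the remaining 4 genes far lower. The level of Cryab, or alpha B-crystallin, a chaperone of desmin and titin, ran from 284 to 1448 RPKM (reads per kilobase of exon, scaled to library size as CPM is) with a median of 500.3. Hspb6, also called Hsp20, had a median of 411 RPKM and was below Cryab in 19 of 20 mice. Hspb8, the partner of Bag3, had a median of 298 RPKM and was below Hspb6 in 16 of 20 mice. The median of Hspb7, a small heat shock protein of heart and skeletal muscle that binds filamin C, was 186 RPKM, and Hspb7 was below Hspb8 in 17 of 20 mice.

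A wide gap followed, since Hspb7 was above Hspb2 in all 20 mice. Hspb2, which forms complexes with Hspb3 in muscle, had a median of 67.6 RPKM, Bag3 one of 57.6 RPKM and Hspb1, or Hsp25, one of 54.2 RPKM. The order of Bag3 and Hspb1 did not hold from mouse to mouse, as Bag3 was the higher in 11 of 20. Hspb3 was the lowest, with a median of 26.1 RPKM. Among the other genes of the small heat shock protein list, Cryaa and Hspb9 had 1 count each over all mice, Odf1 had 6, and Hspb11 alone passed the filter at a mean of 2.12 CPM.

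**Figure D1:**
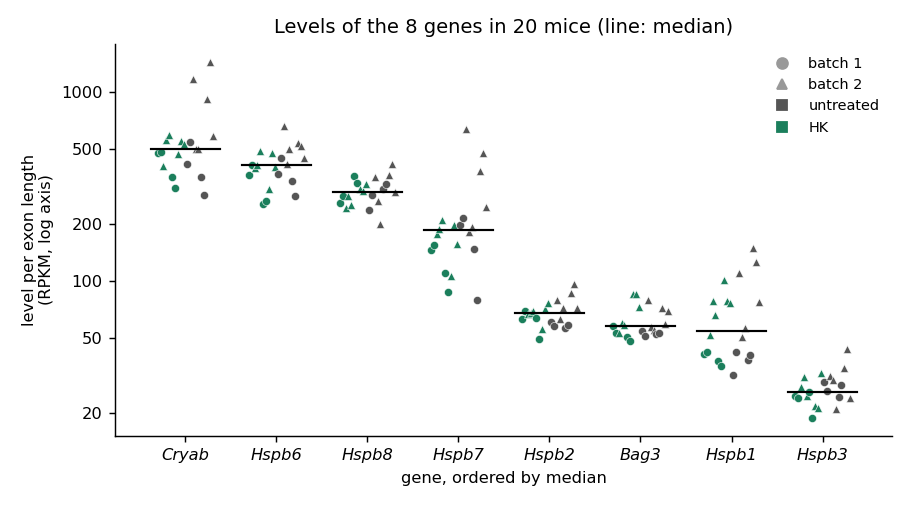
Level of each gene per exon length (RPKM, log axis) in each of the 20 mice, with circles for batch 1, triangles for batch 2, grey for untreated and green for HK-treated mice and a line at the median. Cryab, Hspb6, Hspb8 and Hspb7 sit above the other 4 genes, and the spread is widest for Cryab (284 to 1448 RPKM), Hspb7 (79.6 to 638 RPKM) and Hspb1 (31.7 to 150.3 RPKM).

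The annotation places Cryab on the plus strand and Hspb2 on the minus strand of chromosome 9 as neighbours whose exons share 252 bases, which is 30.2% of the exon length of Hspb2 and 17% of that of Cryab. No source used here tells whether the counting used strand, so the value of Hspb2, the lower of the pair, is uncertain and its likeness to Cryab is not independent. Hspb6 shares 122 exon bases with Proser3, which had at most 120 counts in any mouse against at least 8446 for Hspb6.

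The promoters are shown because heat shock transcription factors bind runs of the unit GAA in alternating direction, and the windows differ in this respect between Hspb7 and the other members. RefSeq windows of 250 bases before to 50 bases after the transcription start (GRCm38.p6) were at hand for 6 of the 8 genes, and Cryab and Hspb2 had no entry. A pair of facing units, GAANNTTC, was found in the windows of 5 of these 6 genes, Hspb1, Hspb3, Hspb6, Hspb8 and Bag3, and in 9.04% of the 27025 genes with a window (7.86% of windows). In the following lines the matching bases are in capitals and each sequence is read 5′ to 3′ on the strand of its gene.

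Hspb1 (chr5:135887791-135887840, plus strand): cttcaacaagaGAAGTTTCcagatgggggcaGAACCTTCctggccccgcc
Hspb6 (chr7:30553170-30553199, plus strand): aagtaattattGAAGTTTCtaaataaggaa
Hspb8 (chr5:116422844-116422873, minus strand): agaagccaggaGAAGTTTCtaggctcgcga
Bag3 (chr7:128523603-128523632, plus strand): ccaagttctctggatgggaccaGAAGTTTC
Hspb3 (chr13:113663882-113663911, minus strand): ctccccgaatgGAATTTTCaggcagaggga

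Hspb1, the classical heat-inducible member, held 2 matches, at 117 and 97 bases before the start, Hspb6 one at 120 bases before the start in one of its 2 windows, and Hspb3 one at 224 bases before it. Those of Hspb8 and Bag3 lay just inside the transcript, from base 3 and base 43. In Hspb1, Hspb6, Hspb8 and Bag3 the inner bases were also the same and gave GAAGTTTC, which on either strand was in 1.35% of genes. This longer form was noticed in these promoters and then counted, so the share is a description. The reverse arrangement, TTCNNGAA, and the runs of 3 alternating units were in none of the 6 windows, although 9.6%, 0.344% and 0.352% of genes held them. Of the 12 inducible heat shock response genes listed for comparison, 11 had a window, of which 8 held GAANNTTC and 4 held TTCNNGAA. TATAAA was found in Hspb6 at 29 and in Hspb3 at 11 bases before the start (15.7% of genes), and the E-box CAGCTG in no member (18.3% of genes).

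Hspb7 held neither form. Its 250 bases before the start are given whole, with each of the 13 single GAA and TTC units in capitals, none of which faces another at a distance of 2 bases.

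Hspb7 (chr4:141420529-141420778, plus strand): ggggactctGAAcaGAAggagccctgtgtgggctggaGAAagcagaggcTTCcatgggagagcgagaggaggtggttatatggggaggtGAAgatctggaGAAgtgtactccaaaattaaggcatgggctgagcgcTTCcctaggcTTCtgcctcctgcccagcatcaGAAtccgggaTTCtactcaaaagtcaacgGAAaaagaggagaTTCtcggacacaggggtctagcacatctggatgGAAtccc

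When HK-treated and untreated mice were compared, 7 of the 8 genes had values below 0 on the log2 scale and Bag3 lay slightly above it. The largest difference was that of Hspb7, the gene the choice rests on, and the next was that of Cryab. Values in this comparison are a description.

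Untreated males had Hspb7 levels of 411, 220.5, 1065, 1323 and 683 CPM in replicates 1 to 5, of which replicates 1 and 2 are batch 1. Those of untreated females were 549, 595, 1766, 506 and 535 CPM. HK-treated males had 304, 244, 293, 549.8 and 434 CPM, and HK-treated females 402, 429, 491, 524 and 581 CPM. The groups overlapped and untreated male 2 was the lowest mouse of all, but 5 untreated mice were above the highest HK-treated mouse and 9 of 10 HK-treated mice were below the untreated median of 572 CPM. The 3 highest mice were untreated males 3 and 4 and untreated female 3, all of batch 2. The mean was 425 ± 115 CPM (SD, n = 10) in HK-treated and 765 ± 475 CPM (SD, n = 10) in untreated mice, and the fitted log2 fold change, with batch and sex as covariates, was -0.78 (SE 0.22).

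This value changed with the mice fitted, and its difference between the batches was not tested. It was -0.33 in batch 1 alone and -1.03 in batch 2 alone, -0.85 in males alone and -0.68 in females alone. Leaving out each mouse in turn gave values from -0.87 to -0.63, and the last was the value without untreated female 3.

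Cryab came next. Its level was between 420 and 2142 CPM in the untreated group (median 776 CPM) and between 459 and 877 CPM in the HK group (median 706 CPM). The same 3 untreated mice were the highest, at 1366, 2142 and 1742 CPM, and the remaining 17 mice lay between 420 and 877 CPM in both groups. The fitted log2 fold change was -0.43 (SE 0.20), from -0.51 to -0.28 with a mouse left out, the last being the value without untreated male 4, and -0.34 without untreated female 3. In batch 1 alone it was 0.02 and in batch 2 alone -0.70.

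The other members differed less. Hspb6 had a median of 918 CPM in HK-treated and 1035 CPM in untreated mice, and its log2 fold change was -0.26 (SE 0.10). In batch 2 all 6 HK-treated mice were below the untreated median of Hspb6, in batch 1 only 2 of 4. The log2 fold change of Hspb3 was -0.21 (SE 0.11), of Hspb1 -0.17 (SE 0.15), of Hspb2 -0.09 (SE 0.08) and of Hspb8 -0.05 (SE 0.08). These small values moved with single untreated mice of batch 2, to -0.09 for Hspb1 without male 3 and -0.10 without female 3, and, without male 4, to -0.14 for Hspb3, -0.04 for Hspb2 and -0.01 for Hspb8. That of Hspb2 was -0.05 without HK-treated male 3, and that of Hspb8 was -0.10 without untreated female 5. Bag3 had a log2 fold change of 0.05 (SE 0.08), from 0.0093 without HK-treated male 4 to 0.09 without untreated female 3, with medians of 149.6 CPM in HK-treated and 143 CPM in untreated mice. The 2 highest mice for Bag3 were HK-treated males 3 and 4, both at 219 CPM, whose Hspb7 levels of 293 and 549.8 CPM were below the untreated median of 572 CPM.

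**Figure D2:**
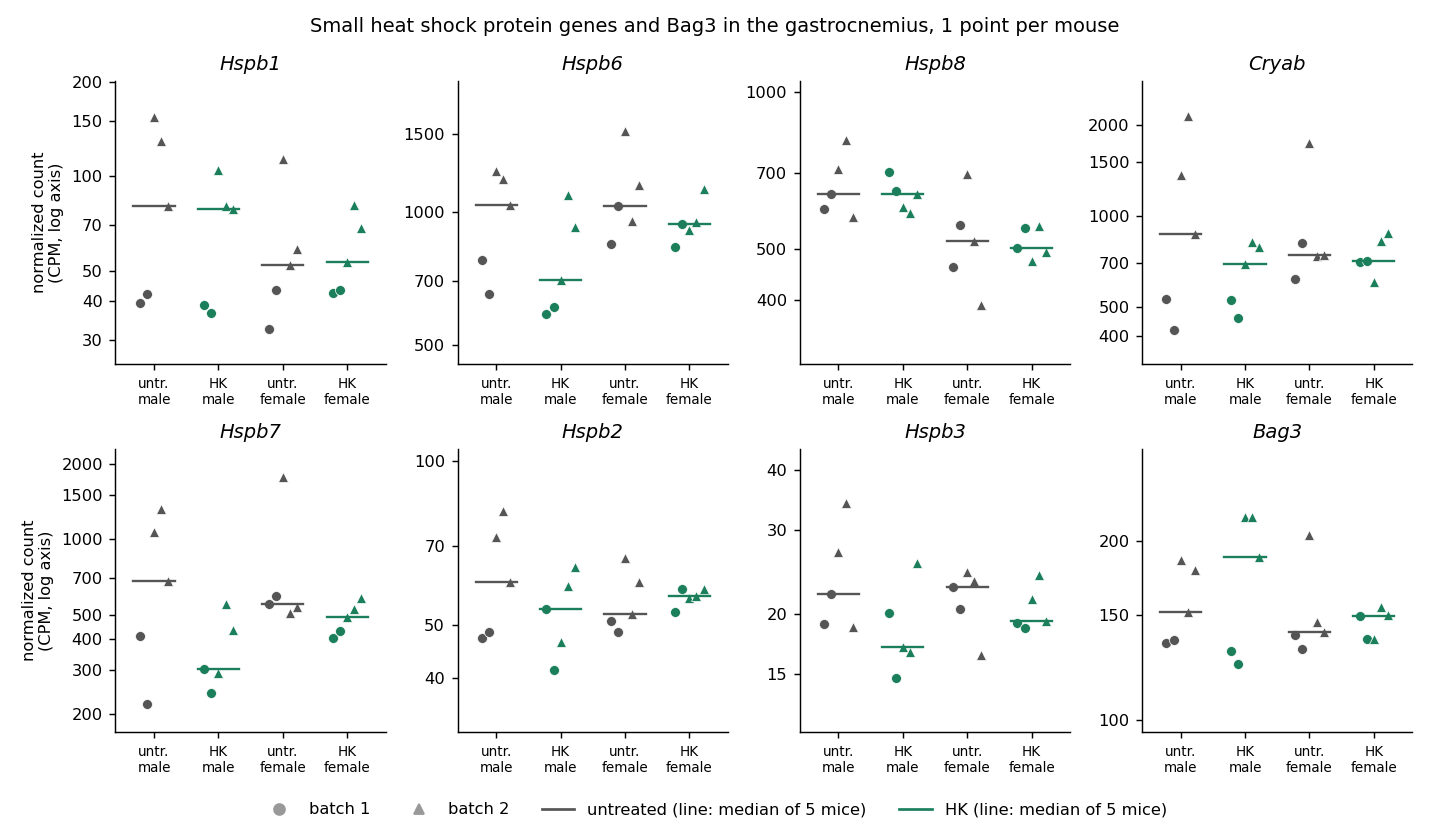
Normalized count (CPM, log axis) of each gene in each mouse by treatment and sex, with circles for batch 1, triangles for batch 2 and a line at the median of 5 mice. Hspb7 and Cryab show 3 untreated mice of batch 2 far above the rest (1065 to 1766 and 1366 to 2142 CPM), Hspb1 separates the batches, and Hspb8 is higher in males.

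Over the family the median log2 fold change was -0.19, against 0.0024 over the 13626 genes tested. None of the 8 passed the quasi-likelihood test of edgeR after Benjamini-Hochberg adjustment, nor did any gene tested (background 0%). DESeq2's Wald test called 6 genes over all and none of the 8, and limma voom called none. The edgeR fit without the filter on low counts called 502 of 30096 genes and 3 of the 8. At an unadjusted p under 0.05, 3 of the 8 were lower (background 3.35%) and 0 were higher (background 2.78%). The rule used this contrast, and nothing is read from these counts. The count of 3 ran from 2 to 4 with each mouse left out in turn, and it was 0 in batch 1 alone, 3 in batch 2 alone, 3 in males alone and 1 in females alone. It was 2 in limma voom, without covariates and with a replicate block, and 5 without the filter on low counts. The shares over all genes in these other fits are not given, and nothing is read from these counts either. The count of 7 below 0 was 4 in batch 1 alone, where Hspb1 (0.03), Hspb2 (0.07), Hspb8 (0.09) and Cryab (0.02) lay above 0, and 7 in batch 2 alone. It was 6 without untreated female 3, where Hspb8 was at 0.0079, and 7 without any other single mouse.

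Among the proteins the family holds in place, 7 of 9 sarcomere genes were below 0 and the median was -0.10 on the log2 scale. Those with the lowest p were Actn2, the Z-disc alpha-actinin (-0.36, SE 0.10), Csrp3, the muscle LIM protein (-0.86, SE 0.27), and Flnc, filamin C (-0.25, SE 0.12). The level of Csrp3 ran from 32.5 to 109 CPM in the HK group (median 72.1 CPM) and from 33.4 to 413 CPM in the untreated group (median 102 CPM). The median of Flnc was 1103 CPM in the HK group and 1285 CPM in the untreated group, whose highest mouse was at 2675.5 CPM. The inducible heat shock genes lay on the other side, with 12 of 12 above 0, a median of 0.21 and 4 past an unadjusted p under 0.05 (2.78% of all genes in this direction). Dnaja1 was at 0.38 (SE 0.15), Hspa1a at 1.06 (SE 0.45) and Dnajb1 at 1.09 (SE 0.47). The large values of Hspa1a, the inducible Hsp70, came from few mice, as its level ran from 1.96 to 80.2 CPM in the HK group (median 6.35 CPM) and from 2.09 to 12.2 CPM in the untreated group (median 5.11 CPM). The medians of Dnajb1 went against its fitted value, at 6.47 CPM in the HK group and 7.14 CPM in the untreated group. Its highest HK-treated mouse was at 131 CPM. In the other lists the median was 0.03 for the 5 other BAG genes, 0.04 for the 10 partners of chaperone-assisted selective autophagy and 0.01 for the 3 heat shock factors that passed the filter, Hsf1, Hsf2 and Hsf4. None of the genes in these lists passed the adjusted test.

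Slow fibre markers were below 0 as well, and slow muscle is known to hold more alpha B-crystallin than fast muscle. All 8 were below 0, their median was -0.68 on the log2 scale, and 5 of 8 had an unadjusted p under 0.05 (3.35% of all genes in this direction). Their summed level ran from 811 to 6357 CPM in untreated and from 774 to 3674 CPM in HK-treated mice, with none of the 8 at 0. Denervation and regeneration genes were below 0 in 7 of 10 (81 to 535 CPM summed in untreated and 103 to 239.7 CPM in HK-treated mice). Macrophage, endothelial and fibro-adipogenic progenitor markers were each below 0 in 6 of 6, and Schwann cell markers above 0 in 6 of 6. No marker in these lists was at 0 in every mouse. The part of these cells in the values of the small heat shock genes was not tested.

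Sex was compared in the same fit. Hspb8 rose in males, and no other member passed the test in either direction. In males its level ran from 576 to 809 CPM with a median of 639, and in females from 392 to 697 CPM with a median of 511. Of the 10 females, 9 were below the lowest male, and the exception was untreated female 3 at 697 CPM. The log2 fold change of males over females was 0.32 (SE 0.08), or 1.25-fold, with an adjusted p of 0.0117 (edgeR, quasi-likelihood test, Benjamini-Hochberg over all genes). Thus 1 of 8 members was higher in males, against 8.79% of genes, and 0 of 8 lower, against 7.33%. The call held in all 20 fits with a mouse left out, with values from 0.26 to 0.38. It held in batch 1 alone and in HK-treated mice alone, but not in batch 2 alone (0.32, edgeR adjusted p = 0.138) or in untreated mice alone (0.32, edgeR adjusted p = 0.261), where the log2 fold change was of the same size.

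The sex value of Hspb6 was -0.25 (SE 0.10) on the log2 scale and did not pass the adjusted test (edgeR, adjusted p = 0.0742), but it passed in 3 of the 20 fits with a mouse left out, those without untreated female 4 (-0.32), HK-treated male 4 (-0.31) or HK-treated female 3 (-0.30). The level of Hspb6 ran from 589 to 1239 CPM in males and from 834 to 1521 CPM in females. Hspb7 was at -0.33 (SE 0.22) and Hspb1 at 0.31 (SE 0.15), neither past the test (edgeR, adjusted p = 0.341 and 0.178). Without untreated female 3 the value of Hspb7 was -0.15. Cryab, Hspb2, Hspb3 and Bag3 differed by between -0.07 and 0.14.

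In the autophagy route that Hspb8 and Bag3 serve, Sqstm1, the receptor p62 that carries ubiquitylated cargo to autophagosomes, rose in males by 0.28 (SE 0.07; edgeR, adjusted p = 0.00680), from a median of 502 to 610 CPM. It was the 1 call among 10 partners, against 8.79% of all genes in this direction. In the sarcomere list Myot, the Z-disc protein myotilin, fell in males by 0.29 (SE 0.08; edgeR, adjusted p = 0.0167). It was the 1 call among 9, against 7.33% of all genes in this direction. Both counts are near the share over all genes, so nothing is read from them about the lists. No inducible heat shock gene, other BAG gene or heat shock factor passed, the nearest being Hspe1 at 0.23 (SE 0.08; edgeR, adjusted p = 0.0501). All 8 slow fibre markers were lower in males, and 7 of 8 passed the adjusted test (7.33% of all genes in this direction). Their summed level was 774 to 6357 CPM with a median of 974 in males, against 2515 to 4705 CPM and a median of 3414 in females. Whether fibre type has a part in the values of Hspb8 was not tested.

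The interaction of HK with sex was not detected for any member. Among 13800 genes 0% passed an adjusted p under 0.05, and at an unadjusted p under 0.05 there were 0 of 8 members against 3.5% of genes (edgeR, lowest adjusted p 0.998). DESeq2 and limma voom also called 0 of 8. The estimates for the members ranged from -0.34 (SE 0.30) for Hspb1 to 0.19 (SE 0.16) for Bag3. They moved with single mice: Hspb1 ran from -0.54 without untreated female 3 to -0.17 without untreated male 3, and Hspb7, at -0.24, from -0.64 without untreated female 3 to -0.03 without untreated male 4. For Hspb7 the 95% interval of the interaction ran from -1.18 to 0.69, and this interval holds a difference as large as the treatment value of -0.78 itself.

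For 6 of the 8 genes the difference between batches was larger in size than that for treatment or sex. Relative to batch 1, 6 of 8 members were higher in batch 2, against 18.2% of genes, and 0 were lower, against 19%. Hspb1 rose most: its level ran from 32.7 to 43.5 CPM in the 8 mice of batch 1 and from 52.0 to 155 CPM in the 12 mice of batch 2, with no overlap, and the log2 fold change was 1.10 (SE 0.16), or 2.14-fold (edgeR, adjusted p = 5.91e-05). Hspb7 rose by 0.83 (SE 0.23; edgeR, adjusted p = 0.00856) and Cryab by 0.72 (SE 0.21; edgeR, adjusted p = 0.00995). For both the ranges overlapped, at 220.5 to 595 against 293 to 1766 CPM for Hspb7 and 420 to 811 against 602 to 2142 CPM for Cryab.

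Smaller rises were found for Hspb6 (0.45, SE 0.10), Bag3 (0.34, SE 0.09) and Hspb2 (0.28, SE 0.08), with edgeR adjusted p of 0.00152, 0.00378 and 0.0133. Bag3 was narrow in batch 1, from 124 to 149 CPM, and wide in batch 2, from 137 to 219 CPM. Hspb3 (0.19, SE 0.11) and Hspb8 (0.01, SE 0.09) did not pass (edgeR, adjusted p = 0.202 and 0.933). The count of 6 did not change with any mouse left out.

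**Figure D3:**
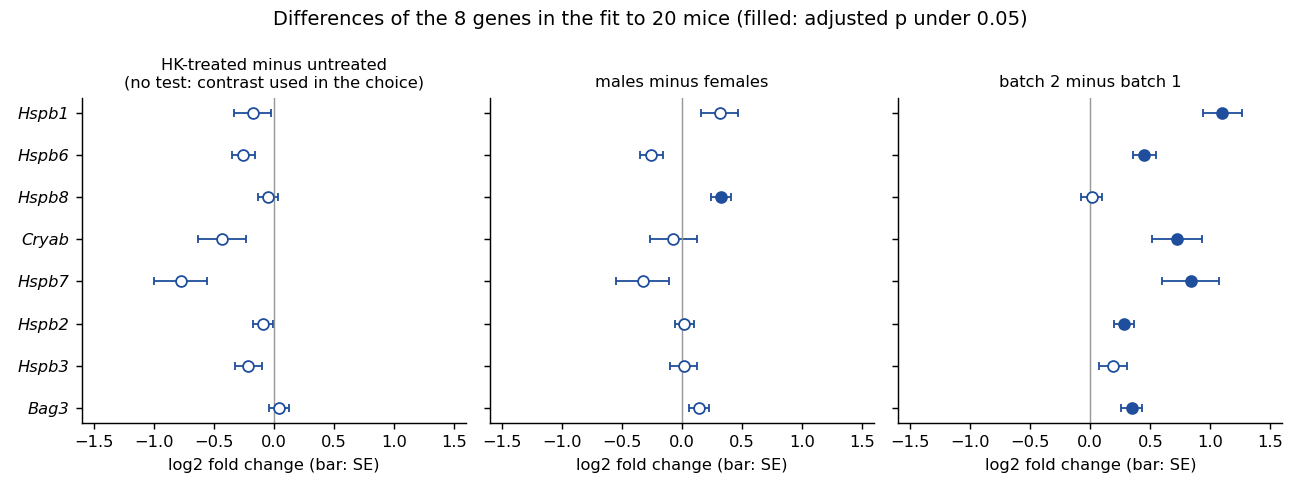
Log2 fold change of each gene with its standard error for HK-treated minus untreated mice, males minus females and batch 2 minus batch 1, with filled points for an edgeR adjusted p under 0.05. No point is filled for the treatment, where the choice of genes allows no test, Hspb8 alone is filled for sex, and 6 genes are filled for batch.

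Other marker lists were higher in batch 2 as well. Over all genes tested, 18.2% passed as higher and 19% as lower. Macrophage markers passed in 6 of 6 (15.5 to 60.4 against 51.1 to 223 CPM summed), fibro-adipogenic progenitor markers in 6 of 6 (163 to 408 against 291 to 1345 CPM), blood markers in 5 of 5 (26.5 to 80.9 against 50.4 to 337 CPM) and denervation and regeneration genes in 8 of 10 (81 to 211 against 156 to 535 CPM). No slow fibre marker passed, and 1 of 8 fast fibre markers did. Of the inducible heat shock genes 5 of 12 were higher and 1 lower. The part of these cell types in the batch difference of the small heat shock genes was not tested.

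The mice differed more in Hspb7 and Cryab than in most genes. After batch, sex and treatment were fitted, the biological coefficient of variation was 34.2% for Hspb7 and 30.3% for Cryab, at percentiles 91.7 and 88.4 of all genes tested, with a median gene at 13.5%. Hspb1 stood at percentile 79.0 and the other 5 genes had coefficients between 13.2% and 17.4%.

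This variation was shared. Over the 20 mice, with batch, sex and treatment removed from the log2 CPM, 18 of the 28 pairs of members passed a permutation test of Pearson's r (100000 resamples, two-sided, Benjamini-Hochberg adjusted over the 28 pairs), and all 18 were positive. Of the 21 pairs among the small heat shock genes 17 passed, with r from 0.18 to 0.91 and a median of 0.68, while of the 7 pairs with Bag3 only that with Hspb1 did. With Spearman's rho 15 pairs passed, none with Bag3. The highest residuals of Hspb7 were those of untreated males 3 and 4 and untreated female 3 (0.56, 0.87 and 0.97). These mice were also the highest for Hspb7 in the treatment comparison, so the covariation is not fully separate from the choice.

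Hspb7 and Cryab formed the tightest pair, with r = 0.91 and rho = 0.93 (permutation test, p = 1e-05, the smallest it can give, and adjusted p = 9.3e-05). Without the 2 mice farthest from the median of Hspb7, r was 0.89. It was 0.77 in batch 1 and 0.91 in batch 2. Hspb6 and Hspb7 had r = 0.83 and rho = 0.86, and r = 0.77 without the 2 farthest mice. Hspb1 and Cryab likewise had r = 0.83 and rho = 0.85, and r = 0.81 without the 2 farthest mice. The permutation p of both was 1e-05, with an adjusted p of 9.3e-05. Among the 10211 genes with a mean count of at least 50, none had a higher r with Cryab than Hspb7, whereas Cryab was number 5 for Hspb7, Hspb7 number 3 for Hspb6 and Cryab number 3 for Hspb1. The r of Hspb7 with all these genes had a median of -0.03 and reached 0.53 at its 95th percentile.

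Hspb3 was the least tied of the small heat shock genes. Its r was 0.67 and its rho 0.58 with Hspb8 (permutation test, p = 0.00159 and adjusted p = 0.00371 for r), and r was 0.63 and rho 0.59 with Hspb2, its known partner (permutation test, p = 0.00304 and adjusted p = 0.00655 for r). With Hspb7 r was 0.46 and with Hspb6 0.18, neither past the test. Each pair was also taken without the 2 mice farthest from the median of 1 of its genes. That gene was the one that comes first in the list opening these Results, so it was never Bag3. Of the 28 pairs 12 then passed. The pairs of Hspb3 with Hspb8 (r = 0.42, permutation test, adjusted p = 0.115) and with Hspb2 (r = 0.45, permutation test, adjusted p = 0.0971) were not among them. Their r was 0.15 and 0.82 in batch 1 and 0.79 and 0.67 in batch 2. In batch 2 alone 14 pairs passed, and in batch 1 alone, with 8 mice, none did (exact permutation test), the r there ranging from -0.48 to 0.82. Among untreated mice alone 16 pairs passed and among HK-treated mice alone 3, a split added after the data had been seen. The difference between these groups was not tested, and the 3 mice with the highest Hspb7 are all untreated.

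No relation of Bag3 with its binding partner Hspb8 was detected. The r of the pair was 0.16 and its rho 0.00 (permutation test, p = 0.494 and adjusted p = 0.532 for r), and r was -0.35 without the 2 farthest mice, -0.48 in batch 1 and 0.29 in batch 2. With Hspb7 r was 0.31 and rho 0.39 (permutation test, p = 0.190 and adjusted p = 0.226 for r), and with Hspb3 r was -0.09 and rho -0.06 (permutation test, p = 0.711 and adjusted p = 0.737 for r). The 1 pair that passed, Bag3 with Hspb1, had r = 0.49 and rho = 0.49 (permutation test, p = 0.0289 and adjusted p = 0.0449 for r, adjusted p = 0.0529 for rho), and r = 0.37 without the 2 farthest mice. Its r was 0.59 in untreated mice alone and 0.79 in HK-treated mice alone. Bag3 with Hspb6 had r = 0.40 over all mice. Without the 2 farthest mice that pair passed (r = 0.61, permutation test, adjusted p = 0.0192).

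**Figure D4:**
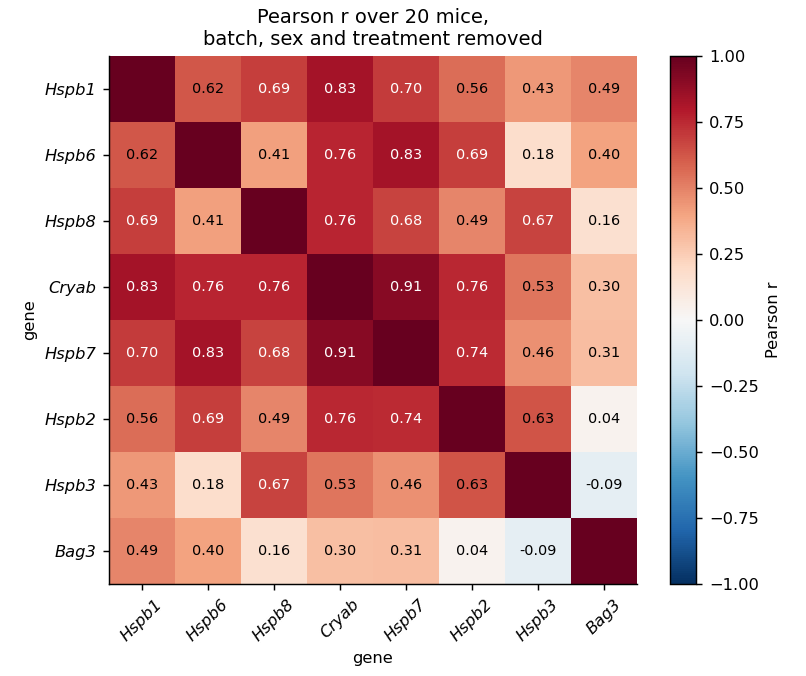
Pearson r between the 8 genes over 20 mice after removal of batch, sex and treatment from the log2 CPM, on a colour scale from -1 (blue) to 1 (red). The small heat shock genes are positively related in every pair, from 0.18 for Hspb3 with Hspb6 to 0.91 for Hspb7 with Cryab, and the row of Bag3 is pale, from -0.09 to 0.49.

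**Figure D5:**
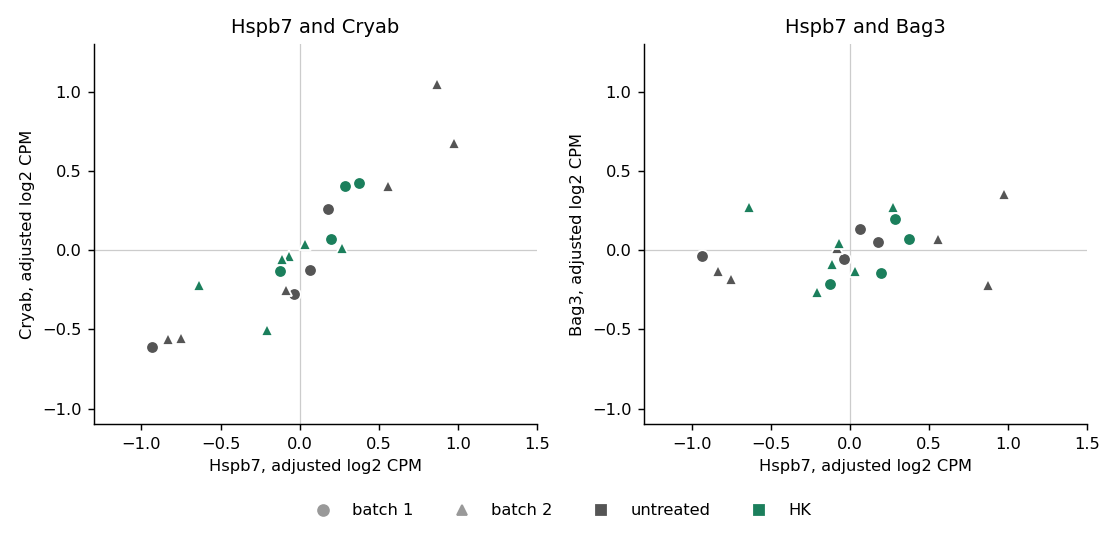
Log2 CPM of Hspb7 against that of Cryab and of Bag3 after removal of batch, sex and treatment, 1 point per mouse, with circles for batch 1, triangles for batch 2, grey for untreated and green for HK-treated mice. The points for Cryab follow a line (r = 0.91) and those for Bag3 scatter (r = 0.31).

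The genes nearest to Hspb7 by r over the 20 mice were Fhl1 (0.92), Ankrd1 (0.92), Myl12a (0.92), Ankrd2 (0.92) and Cryab (0.91). Fhl1 encodes a LIM protein of muscle, and Ankrd1 and Ankrd2 encode ankyrin repeat proteins that bind titin and respond to stretch. The genes nearest to Cryab were Hspb7 (0.91), Mustn1 (0.91), Ankrd1 (0.90), Myl12a (0.90) and Fhl1 (0.89). Those of Bag3 were others: Dnajb4 (0.91) and Dnaja1 (0.86), both Hsp40-type cochaperones of Hsp70, Slc6a8, the creatine transporter (0.90), Taf5 (0.90) and Sox9 (0.86). These genes were picked for their r among 10211, so the values are a description. Within the batches the r of Hspb7 with Fhl1 was 0.90 and 0.92 and with Ankrd1 0.93 and 0.90. That of Bag3 with Dnajb4 was 0.26 in batch 1 and 0.95 in batch 2.

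Each member was also set against the mean of 16 gene lists over the 20 mice, which makes 128 relations. The lists were chosen with earlier results of these data known, so these tests are not independent of the data. For these relations the 2 farthest mice are those farthest from the median of the list mean. By Pearson's r, 2 of these passed a permutation test with Benjamini-Hochberg adjustment over the 128. Hspb7 rose and fell with the sarcomere list of 9 genes (r = 0.75, permutation p = 7e-05, adjusted p = 0.00896, rho = 0.73, permutation p = 0.00047, adjusted p = 0.0410), with r = 0.64 without the 2 farthest mice, 0.62 in batch 1 and 0.86 in batch 2. Bag3 went with the inducible heat shock list of 12 genes (r = 0.70, permutation p = 0.00041, adjusted p = 0.0262), although not by rank (rho = 0.61, permutation p = 0.00533, adjusted p = 0.0758), with r = 0.61 without the 2 farthest mice, 0.35 in batch 1 and 0.71 in batch 2. By rank, a relation of Cryab with the denervation and regeneration list of 10 genes passed (rho = 0.71, permutation p = 0.00064, adjusted p = 0.0410), although not by Pearson's r (r = 0.57, permutation p = 0.00909, adjusted p = 0.130), with r = 0.75 without the 2 farthest mice, 0.73 in batch 1 and 0.21 in batch 2. This list holds Ankrd1, one of the genes nearest to Cryab (r = 0.90), and the relation without Ankrd1 was not tested.

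The single genes of the inducible list are given as a description. Bag3 was positively related to 11 of the 12, with a median r of 0.49 and 0.82 for Hspa1a, whereas Hspb7 was so to 5 of 12, with a median r of -0.01 and -0.07 for Hspa1a. The r of the slow fibre list was 0.37 with Hspb7 (rho = 0.36, permutation test, p = 0.104 and adjusted p = 0.368 for r) and 0.64 without the 2 farthest mice. With Cryab its r was 0.20 (rho = 0.28, permutation test, p = 0.38 and adjusted p = 0.762 for r). That r was 0.51 without the 2 farthest mice, 0.42 in batch 1 and 0.04 in batch 2.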

How the data were processed

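RNA-seq counts of the gastrocnemius of 20 mice were analysed, grouped by the treatment, sex, batch and replicate of the sample labels. The authors aligned the reads with STAR 2.6.1c to GRCm38.p6, quantified genes with GENCODE M25 and deposited whole-number counts per gene without normalization. Neither the counting tool nor its strand setting is given in the sources used here. GENCODE M21 gave the gene names, positions and exon lengths and matched 55141 of 55401 identifiers.

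Counts were scaled by TMM, filtered with filterByExpr (13626 genes) and fitted with batch, sex and treatment in edgeR 4.0.16 (R 4.3.3), with the quasi-likelihood test and Benjamini-Hochberg adjustment over all genes. The interaction fit held 13800 genes. DESeq2 1.42.0 and limma 3.58.1 served as alternatives. The fit and the permutation test were tested on simulated data. RPKM were CPM divided by the union of exons in kilobases. Correlations used residuals of log2 CPM (prior count 2) after batch, sex and treatment, in Python 3.11.15 with numpy 2.4.6 and permutations of mice, for which residuals are only approximately exchangeable. The score of a list was the mean of its genes' standardized residuals, which left out the member itself.

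The members and lists were chosen with earlier results of these data known. The genes named are the 8 members, the 5 genes nearest by r to Hspb7, Cryab and Bag3, and up to 3 genes of each pathway list with the lowest p for treatment and for sex. Hspb11, Cryaa, Hspb9 and Odf1 are named as the rest of their family, and Hspa1a in the correlation because of its value. Totals of 13900180 to 30469644 counts per mouse put every member count at 227 or above, so the spread between mice outweighs counting error. Nothing in the labels states whether mice shared a litter or cage. Protein sequences were not used here.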

Additional observations from a re-analysis of the deposited data

Results flagged for a closer look

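Each of the 8 genes was examined in the 4 groups of 5 mice that share treatment and sex, which makes 32 groups. Chance alone would mark about 1 in 20 if the mice of a group came from a single population. Each group held mice of both batches and batch was not removed, so this rate need not hold here. In 3 of the 32 groups a mouse lay far from the others, with a gap to its nearest neighbour on the log2 scale of more than 0.71 of the range of the group. All 3 were untreated female 3, of batch 2. Its Hspb7 level was 1766 CPM, with the next female at 595 CPM (gap 0.871 of the range). Its Cryab level was 1742 CPM against 811 CPM (0.740 of the range), and its Bag3 level 204 CPM against 146 CPM (0.761 of the range). The 3 genes were read from the same library, so these are not 3 independent events. The values of Hspb7 and Cryab in untreated males 3 and 4 were high too but did not stand apart from their group by this measure. No member differed between the sexes in its response to HK by the interaction test.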

How the results depend on the processing

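Across the other settings tried (DESeq2 size factors, no filter, DESeq2, limma voom, no covariates, a replicate block, single batches, sexes or treatments, and each mouse left out), no member's treatment value moved by more than 1 SD between mice. This bound is wide: the SD was 0.56 for Hspb7 and 0.48 for Cryab, against SEs of 0.22 and 0.20 for their treatment values. The value of Cryab changed sign within it in batch 1 alone. With no filter on low counts, edgeR called 502 of 30096 genes and 3 of 8 members for treatment, where the main fit called 0. For sex it then called 4 members in place of 1. Also for sex, 4 members passed in batch 1 alone, and 0 in batch 2 alone or in untreated mice alone. The shares of all genes called for sex in these fits are not given, so nothing is read from these member counts. The causes of these changes in count were not tested. Leaving out a mouse kept 0 called members for treatment and 0 for the interaction, 6 for batch, 1 to 2 for sex and 16 to 20 correlated pairs of 28. In batch 1 alone 0 pairs passed, in HK-treated mice alone 3 and in untreated mice alone 16, and the cause was not tested.

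The replicate numbers mark the batch, since 1 and 2 are batch 1 and 3 to 5 batch 2. With batch removed, 1 of 10 pairings of groups had same-numbered mice deviating together (correlation over 0.1), so the numbers were not used as pairs. With a replicate block in place of batch, 0 members were called for treatment (Hspb7 -0.66, Cryab -0.34), 1 for sex and 0 for the interaction, as without it.

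Values that had passed no test also changed sign. For treatment, in batch 1 alone, 4 of 8 members were below 0 in place of 7, Hspb1 (0.031), Hspb2 (0.072), Hspb8 (0.086) and Cryab (0.018) having turned above 0 and Bag3 (-0.0030) below it, and Hspb8 was at 0.0079 without untreated female 3. For sex these were Hspb1 (-0.049), Hspb2 (-0.15), Hspb3 (-0.11) and Bag3 (-0.087) in batch 1 alone, Cryab in batch 2 alone (0.22), without covariates (0.052) and in untreated mice alone (0.013), Hspb2 (-0.10) and Hspb3 (-0.13) in HK-treated mice alone and Hspb3 in limma voom (-0.0062). With a mouse left out the sex value ran from -0.029 to 0.056 for Hspb2, -0.063 to 0.052 for Hspb3 and -0.23 to 0.035 for Cryab. The batch value of Hspb8 was -0.0014 in limma voom and ran from -0.035 to 0.041 with a mouse left out, and its interaction value from -0.17 to 0.057. In batch 1 alone the interaction was 0.26 for Hspb7, 0.090 for Hspb8, 0.080 for Cryab and -0.17 for Bag3.

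The interaction was estimated with wide intervals, and the overlap of Hspb2 with Cryab and the unknown use of strand limit Hspb2. Cell types of the muscle cannot be separated in these counts.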
